A study of Mus musculus with 10 samples.

Results

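Collagen genes were taken as every row of the mouse liver table whose symbol is Col, a number, the letter a and a number. There were 44 such genes among 24062, and 26 of them were tested, since their normalised read count reached 1 in 2 or more of the 10 libraries. The study fed mice a Western diet (WD) or a normal diet (ND) and gave them the liver toxin carbon tetrachloride (CCl4) or its oil vehicle, to follow steatohepatitis and liver tumours. The tumour group consisted of hepatocellular carcinoma tissue from 2 single mice after 24 weeks of WD and CCl4. The liver groups were WD with CCl4, ND with CCl4, WD with oil and ND with oil, each with 1 library at 12 weeks and 1 at 24 weeks, and each liver library was a pool of 4 mice. The sources used here do not give strain, sex, age or the dose of CCl4. No group had a replicate pool of the same duration, so the 12-week and the 24-week pool of a group stood in as repeats. The fits also held a duration term, which takes out the shift with time shared by the groups. The p-values therefore weigh a change against the spread between those pools that remained after this shift. That is not the spread between animals, though in the tumour comparison the difference between the 2 single-mouse tumours enters as well.

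Collagens are secreted proteins whose chains wind into long helices. Fibrillar collagens (types I, III, V and relatives) form the fibres of scar, and in injured liver they come mainly from stellate cells, the vitamin A storing cells that turn into myofibroblasts. Type IV collagen forms the sheet of basement membranes, type VI the beaded filaments around cells, and the FACIT collagens sit on the surface of fibrils. The multiplexins, Col15a1 and Col18a1, link basement membranes to the tissue, and Col18a1 is known to be made by hepatocytes themselves.

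Several members lie next to each other in the genome. In the GENCODE annotation of GRCm38, Col4a1 and Col4a2 stood head to head on chromosome 8 and overlapped by 22 bases, Col4a4 and Col4a3 stood head to head on chromosome 1 with 71 bases between them, and Col4a6 and Col4a5 stood head to head on chromosome X with 1308 bases between them. Col3a1 and Col5a2 faced each other with their ends on chromosome 1, 24614 bases apart, and Col6a2 and Col6a1 lay on the same strand of chromosome 10, 85161 bases apart. RefSeq promoter windows (GRCm38.p6, 250 bases before to 50 after the start) were found for 35 of the 44 members, 38 windows in all. Windows are printed for Col1a2 and Col3a1, which moved together across the libraries, for the pair Col4a1 and Col4a2, which share 78 bases of their windows, and for Col4a4, whose window holds the annotated start of Col4a3, the member that rose in tumours. Each runs 5′ to 3′ on the strand of its gene, and capitals mark a GC box with the letters GGGCGG, the CCAAT box, or a TATA box with the letters TATAAA, on either strand. The positions are chr6:4505368-4505667 on the plus strand for Col1a2, chr1:45311288-45311587 on the plus strand for Col3a1, chr8:11312777-11313076 on the minus strand for Col4a1, chr8:11312555-11312854 on the plus strand for Col4a2 and chr1:82586800-82587099 on the minus strand for Col4a4.
Col1a2: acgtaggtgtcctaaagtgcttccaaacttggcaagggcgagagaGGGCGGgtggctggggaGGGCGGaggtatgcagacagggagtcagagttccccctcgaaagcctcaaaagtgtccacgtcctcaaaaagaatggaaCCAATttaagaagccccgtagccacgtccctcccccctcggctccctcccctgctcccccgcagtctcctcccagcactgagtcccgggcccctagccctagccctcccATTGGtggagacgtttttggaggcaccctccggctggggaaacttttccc
Col3a1: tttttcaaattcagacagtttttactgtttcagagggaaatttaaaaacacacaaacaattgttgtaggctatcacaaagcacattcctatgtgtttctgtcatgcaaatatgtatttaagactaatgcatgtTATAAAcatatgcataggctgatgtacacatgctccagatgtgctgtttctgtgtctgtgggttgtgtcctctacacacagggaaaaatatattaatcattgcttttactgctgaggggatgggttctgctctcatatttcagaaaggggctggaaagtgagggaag
Col4a1: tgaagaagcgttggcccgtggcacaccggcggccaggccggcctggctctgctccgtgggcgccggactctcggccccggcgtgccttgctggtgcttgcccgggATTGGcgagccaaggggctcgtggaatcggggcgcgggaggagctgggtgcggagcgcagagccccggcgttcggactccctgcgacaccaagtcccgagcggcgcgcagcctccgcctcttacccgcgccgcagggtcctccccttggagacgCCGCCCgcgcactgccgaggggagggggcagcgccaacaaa
Col4a2: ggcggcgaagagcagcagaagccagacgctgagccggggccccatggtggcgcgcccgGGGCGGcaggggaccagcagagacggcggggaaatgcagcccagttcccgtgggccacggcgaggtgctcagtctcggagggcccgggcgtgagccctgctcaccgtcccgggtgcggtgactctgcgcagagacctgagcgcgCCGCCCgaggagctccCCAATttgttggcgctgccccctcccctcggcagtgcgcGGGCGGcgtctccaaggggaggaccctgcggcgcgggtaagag
Col4a4: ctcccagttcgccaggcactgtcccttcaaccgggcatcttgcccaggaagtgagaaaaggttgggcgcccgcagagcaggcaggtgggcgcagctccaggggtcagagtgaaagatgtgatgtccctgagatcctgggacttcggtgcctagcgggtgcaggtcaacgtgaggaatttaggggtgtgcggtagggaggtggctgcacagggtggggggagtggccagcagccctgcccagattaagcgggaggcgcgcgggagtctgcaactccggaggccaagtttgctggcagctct

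The window of Col1a2 held 2 GC boxes and 2 CCAAT boxes, and that of Col3a1 held 1 TATA box and neither of the other motifs. The Col4a2 window held 3 GC boxes and 1 CCAAT box, the Col4a1 window 1 of each, and the Col4a4 window none of the 4 motifs searched. A GC box stood in 23 of the 38 collagen windows, or 60.5%, against 35.7% of all 32851 windows of this length. A CCAAT box stood in 34.2% of the collagen windows and 37.4% of all, and a TATA box in 13.2% and 13.6%. The AP-1 motif TGANTCA stood in 1 collagen window, or 2.63%, against 7.81% of all windows. These are letters found in a window, and binding was not measured.

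The libraries held 23206229 to 30137802 reads, and 1 read was worth between 0.0287 and 0.0457 normalised counts. A value of 0 allows up to 3 reads, or at most 0.0862 to 0.137 normalised counts depending on the library, for counting error only. The hepatocyte marker Alb (albumin) lay between 54802 and 203789 normalised counts in all 10 libraries, and the highest value was that of tumour 2. Read strand in the counting is not given in the sources used here, so reads of antisense genes that share exons with a member cannot be told apart from its own. The longest such overlap among tested members was 563 bases, between Col4a3 and C430014B12Rik.

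Divided by transcript length, Col18a1 was the most abundant collagen transcript in every library. Its level per kilobase was 222 and 279 in the tumours, 222 and 194 in the WD with CCl4 pools at 12 and 24 weeks, 193 and 176 in the ND with CCl4 pools, 271 and 253 in the WD with oil pools, and 251 and 194 in the ND with oil pools. It made up 59.3% and 42.5% of the summed collagen level per kilobase in WD with CCl4, 61.8% and 49.9% in ND with CCl4, 75.4% and 75.1% in WD with oil and 86.9% and 83.7% in ND with oil. Its share was lower with CCl4 and its own level was not called by limma in any of the comparisons below.

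With Col18a1 left out, collagen transcripts took 896 and 1789.6 of every 1000000 reads in WD with CCl4 (12 and 24 weeks), 718 and 1149 in ND with CCl4, 478 and 481 in WD with oil and 204 and 204 in ND with oil. The tumours had 1557 and 603. The 4 pools with CCl4 were all above the 4 pools with oil, and the 2 oil pools of each diet lay close together. Of what remained, Col1a1, Col1a2 and Col3a1 together made up 50.6% and 52.1% per kilobase in WD with CCl4, 45.9% and 46.1% in ND with CCl4, 37.5% and 36.0% in WD with oil and 19.0% and 18.3% in ND with oil. They made up 42.4% and 42.0% in the tumours. In both CCl4 groups these shares were closer between 12 and 24 weeks than the read totals were.

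**Figure D1:**
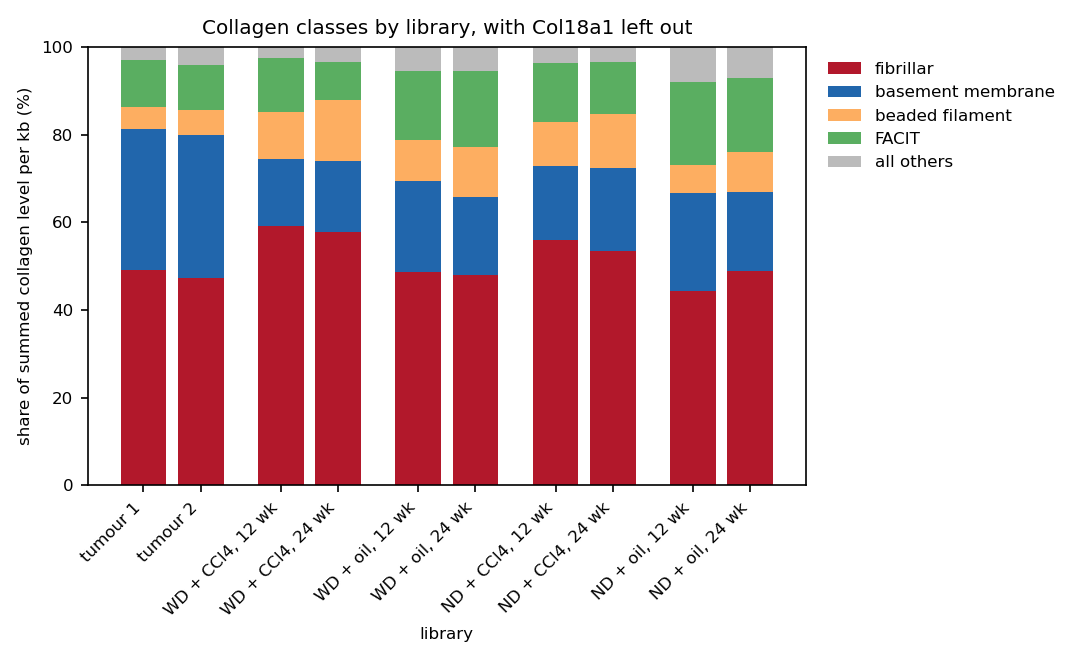
Share of each collagen class in the summed collagen level per kilobase (y axis, percent) in each library (x axis), with Col18a1 left out and the smaller classes joined as all others. Basement membrane collagen takes 32.2% and 32.5% in the 2 tumours and 15.3% to 22.2% in the 8 liver pools.

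CCl4 was compared with oil on the normal diet to see what the toxin did without the rich diet. Of the 26 tested collagens, 15 rose and 1 fell (limma, Benjamini-Hochberg adjusted p under 0.05), against 26.0% of all tested genes called in this comparison. Their median log2 fold change was 1.21, where that of all tested genes was 0.00414. By class, 5 of 7 tested fibrillar collagens rose and 1 fell, 4 of 5 beaded filament collagens rose, 3 of 3 FACIT collagens rose, 2 of 6 basement membrane collagens rose and 1 of 2 multiplexins rose. In bulk liver, more or fewer cells of a type and more or less RNA per cell cannot be told apart.

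Among the fibrillar collagens, the type I chain Col1a1 (chromosome 11, 94936224 to 94953042) had 67.2 and 106 normalised counts in ND with CCl4 at 12 and 24 weeks, and 4.92 and 5.90 in ND with oil. Its partner chain Col1a2 had 71.1 and 115 with CCl4 and 11.4 and 8.33 with oil. Col3a1, which makes the fine reticulin fibres of liver, had 169 and 235 with CCl4 and 23.5 and 24.2 with oil. None of these groups overlapped, though the share of all tested genes without overlap in this comparison was not counted. The log2 fold changes were 3.74 ± 0.27 for Col1a1, 3.09 ± 0.27 for Col1a2 and 3.01 ± 0.19 for Col3a1 (SE, limma adjusted p = 0.000103, 0.000251 and 5.86e-05). Type V collagen sits in the core of fibrils, and its chain Col5a2 had 14.3 and 22.3 with CCl4 and 3.06 and 4.25 with oil, a log2 change of 2.03 ± 0.21. The chain Col5a1 had 17.1 and 25.7 with CCl4 and 6.52 and 6.08 with oil, a log2 change of 1.59 ± 0.19.

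The other type V chain did not pass limma's test with all 8 pools. Col5a3 had 33.9 and 30.5 in ND with CCl4 and 33.2 and 44.6 in ND with oil, a log2 change of -0.25 ± 0.16 (limma adjusted p = 0.271). Without the 12-week ND with oil pool it was called lower (-0.51, adjusted p = 0.0453). Per kilobase, the ratio of Col5a3 to Col5a1 was 2.72 and 1.63 in ND with CCl4 and 7.0 and 10.1 in ND with oil. It was 1.75 and 1.13 in WD with CCl4 and 3.38 and 3.53 in WD with oil. All 4 ratios with CCl4 were below all 4 with oil. Col27a1, a fibrillar collagen of cartilage and other tissues, had 16.3 and 12.9 with CCl4 and 21.4 and 22.1 with oil on the normal diet. It was the 1 collagen called lower by limma (log2 change -0.55 ± 0.15, adjusted p = 0.0252). The call was lost with no filter, with all 10 libraries in the fit and without 5 of the 8 pools in turn, which were both ND with CCl4 pools, both WD with oil pools and the 24-week ND with oil pool.

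**Figure D2:**
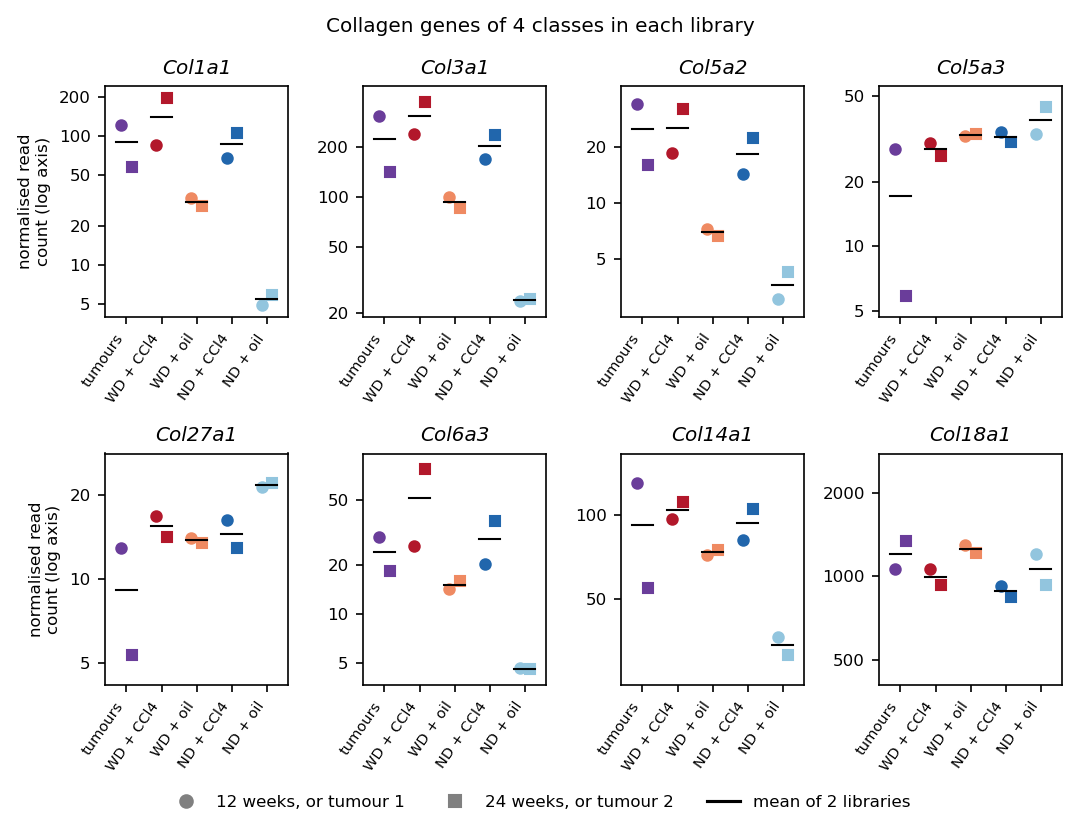
Normalised read counts (y axes, log scale) of 8 collagen genes by group, with circles for 12 weeks or tumour 1, squares for 24 weeks or tumour 2, and a bar for the mean of the 2 libraries. Col1a1, Col3a1, Col5a2, Col6a3 and Col14a1 lie higher in both CCl4 groups than in the oil group of the same diet, whereas Col5a3, Col27a1 and Col18a1 do not.

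The main type VI chains, which form beaded filaments, rose together. Col6a1 had 20.8 and 37.8 in ND with CCl4 and 5.24 and 5.81 in ND with oil, Col6a2 had 17.1 and 32.6 with CCl4 and 2.26 and 5.54 with oil, and Col6a3 had 20.2 and 37.2 with CCl4 and 4.61 and 4.57 with oil. The log2 fold changes were 2.16 ± 0.21, 2.41 ± 0.22 and 2.35 ± 0.32, with no overlap between the groups. The alternative chains were scarce. Col6a5 rose (0.97 ± 0.24, limma adjusted p = 0.0204) at 1.11 and 1.13 normalised counts with CCl4 and 0.177 and 0 with oil, and Col6a6 did not pass the test (0.16 ± 0.31). The Col6a5 call was kept in 9 of 15 alternatives.

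All 3 tested FACIT collagens rose. Col14a1, which binds fibril surfaces, was the most abundant of them, with 81.4 and 105 in ND with CCl4 and 36.5 and 31.4 in ND with oil (log2 change 1.42 ± 0.14, limma adjusted p = 0.000482). Col12a1, its close relative, had 5.89 and 6.83 with CCl4 and 1.55 and 1.74 with oil (1.47 ± 0.22), and Col16a1 had 6.17 and 8.99 with CCl4 and 2.80 and 2.56 with oil (1.20 ± 0.23).

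Among the basement membrane collagens, the pair that makes the common type IV network rose. Col4a1 had 85.2 and 139 in ND with CCl4 and 30.0 and 25.2 in ND with oil, and Col4a2 had 43.6 and 70.1 with CCl4 and 21.4 and 16.7 with oil. The log2 fold changes were 1.95 ± 0.26 and 1.5 ± 0.29 (limma adjusted p = 0.00163 and 0.00747). The chains of the other type IV networks did not pass limma's test. Col4a5, at 0.86 ± 0.28, had an adjusted p of 0.0504 by limma, and edgeR and DESeq2 called it higher (adjusted p = 0.0389 and 0.0128). Limma also called it without the 12-week ND with CCl4 pool (0.0385), or without the WD with CCl4 pool of 12 weeks (0.0364) or of 24 weeks (0.0366). Col4a3 (0.01 ± 0.25), Col4a4 (0.47 ± 0.38) and Col4a6 (0.42 ± 0.39) stayed at or under 1.31 normalised counts in these 4 pools.

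Of the remaining classes, the multiplexin Col15a1 had 12.8 and 22.1 with CCl4 and 6.74 and 6.54 with oil on the normal diet (log2 change 1.22 ± 0.35, limma adjusted p = 0.033). Col18a1, the other multiplexin and the source of the fragment endostatin, had 926 and 845 with CCl4 and 1204 and 930.0 with oil (-0.26 ± 0.14, adjusted p = 0.203). The short-chain collagen Col8a1 changed by 0.52 ± 0.44 and the transmembrane collagens Col13a1 and Col25a1 by 0.55 ± 0.21 and -0.82 ± 0.30, and none of them passed limma's test. DESeq2 called Col25a1 lower (adjusted p = 0.031), as did limma after quantile normalization (0.027) or without the 12-week ND with oil pool (0.0238).

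**Figure D3:**
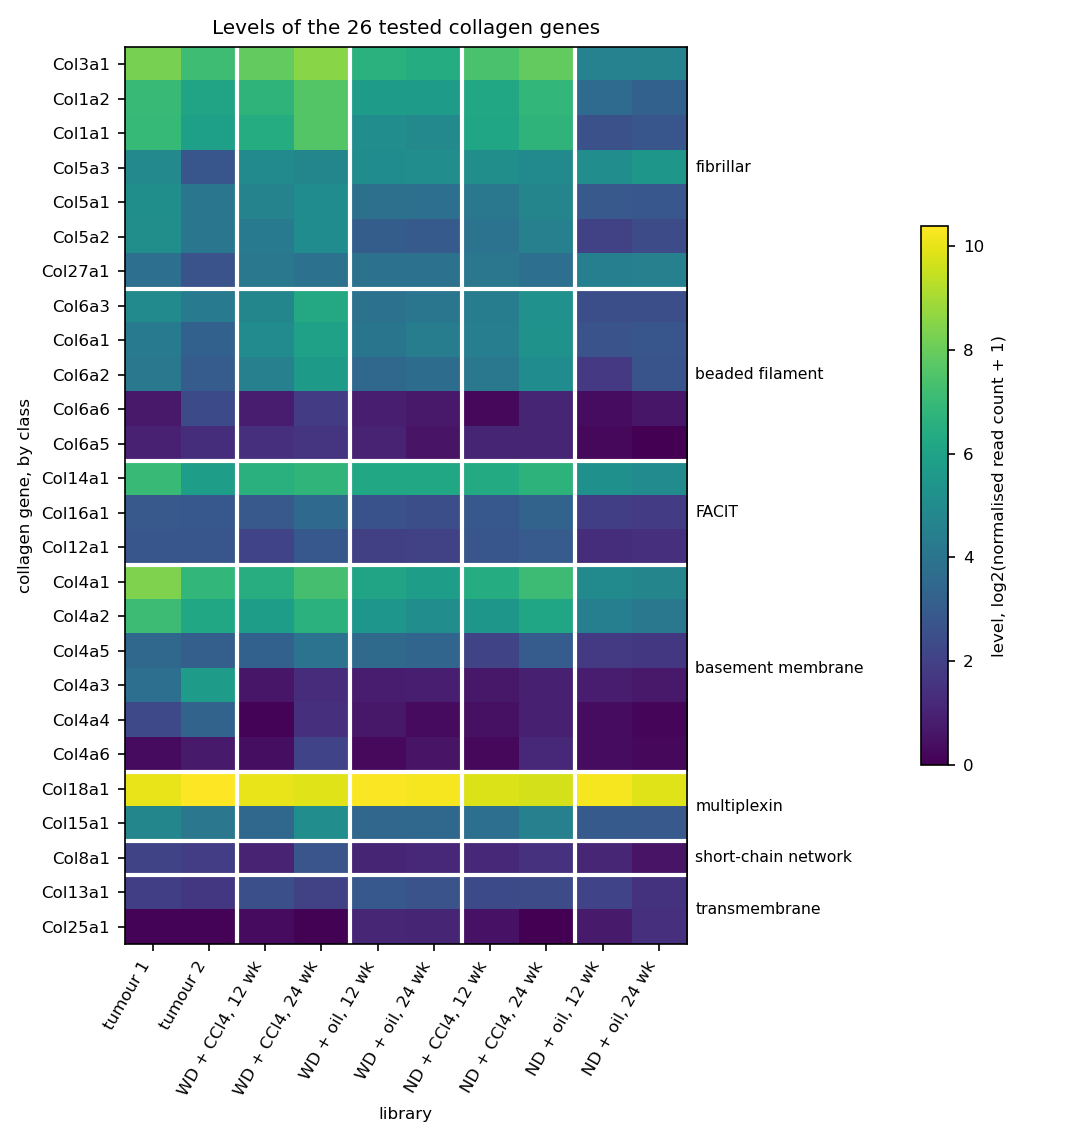
Level of each tested collagen gene (rows, by class) in each library (columns), as log2(normalised read count + 1). The rows of Col1a1, Col1a2, Col3a1, Col6a1, Col6a2 and Col6a3 are darkest in the ND with oil columns, and Col18a1 is bright in all 10 columns. Col4a3 is brighter in the 2 tumour columns than in the liver columns.

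The Western diet with oil was compared with the normal diet with oil. Here limma called 8 of the 26 tested collagens higher and 0 lower, or 30.8%, against 1.99% of all tested genes. DESeq2 called 14, against 4.51% of all tested genes, and 1 of them, Col27a1, was lower (log2 change -0.67, adjusted p = 0.0272). The median log2 change of the collagens was 0.73, and that of all tested genes 0.0205. The 8 called by limma were 4 fibrillar, 2 beaded filament, 1 FACIT and 1 basement membrane member. Col1a1 had 33.2 and 28.8 normalised counts in WD with oil at 12 and 24 weeks, against 4.92 and 5.90 in ND with oil, and Col1a2 had 52.5 and 53.1 against 11.4 and 8.33. Their log2 fold changes were 2.32 ± 0.27 each (limma adjusted p = 0.00599). Col3a1 had 99.2 and 85.9 in WD with oil, against 23.5 and 24.2 in ND with oil (1.91 ± 0.19, adjusted p = 0.0031), and Col5a1 rose by 0.95 ± 0.19.

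Col6a1 rose by 1.5 ± 0.21, Col6a2 by 1.38 ± 0.22 and Col14a1 by 1.09 ± 0.14 with the diet. Col6a3 had 14.2 and 15.8 in WD with oil, against 4.61 and 4.57 in ND with oil. Its change of 1.51 ± 0.32 did not pass limma's test (adjusted p = 0.0542), while edgeR and DESeq2 called it higher (0.0481 and 3.34e-05). Col4a5, an X-linked type IV chain, had 10.98 and 9.49 in WD with oil, against 2.40 and 2.24 in ND with oil (1.76 ± 0.28, adjusted p = 0.0185). The transmembrane Col13a1 had 6.20 and 5.26 in WD with oil, against 3.24 and 1.88 in ND with oil. Its change of 0.94 ± 0.21 did not pass limma's test (adjusted p = 0.0646), while DESeq2 called it higher (0.0287). Col4a1 (1.09 ± 0.26) and Col4a2 (0.96 ± 0.29) did not pass limma's test, with adjusted p of 0.0836 and 0.144, while DESeq2 called both higher (0.00194 and 0.0219). Without either WD with CCl4 pool limma called Col4a1 too (0.0255 without that of 12 weeks and 0.0252 without that of 24 weeks). This comparison rested on single pools: limma called no collagen without the WD with oil pool of 12 weeks (11 had an unadjusted p under 0.05), 1 without the ND with oil pool of 24 weeks, 3 without the WD with oil pool of 24 weeks and 5 without the ND with oil pool of 12 weeks. Of all tested genes, 0.134%, 0.269%, 0.174% and 0.830% were called in these 4 fits in that order. The direction of all 8 was kept in each of these fits.

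Western diet and CCl4 together were compared with normal diet and oil. Of the 26 tested collagens, 16 rose and 1 fell, against 25.9% of all tested genes, with a median log2 change of 1.37 where that of all tested genes was -0.0164. All 3 comparisons so far share the 2 ND with oil pools. The 15 collagens that rose with CCl4 on the normal diet and the 8 that rose with the diet are therefore set beside these only by their values.

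Col1a1 had 86.0 and 196 in WD with CCl4, Col1a2 had 106 and 195, and Col3a1 had 238 and 372, with log2 changes over ND with oil of 4.36 ± 0.27, 3.75 ± 0.27 and 3.59 ± 0.19 (limma adjusted p = 4.7e-05, 9.6e-05 and 2.65e-05). Col5a2 had 18.6 and 32.1 (2.46 ± 0.21). Col6a1 had 31.3 and 60.7, Col6a2 had 22.2 and 49.2 and Col6a3 had 26.0 and 77.0, with changes of 2.78 ± 0.21, 2.88 ± 0.22 and 3.04 ± 0.32. For each of these 7 genes, all called in this comparison, both WD with CCl4 pools lay above both ND with oil pools, and the 24-week pool was the higher. The share of all tested genes that did the same was not counted. Col4a1 had 88.9 and 159.9 (2.08 ± 0.26), Col4a2 had 54.6 and 98.8 (1.90 ± 0.29), and Col4a5 had 8.33 and 14.6 (1.86 ± 0.28). Col14a1, with 96.5 and 111, rose by 1.59 ± 0.14, Col16a1, with 6.41 and 10.9, by 1.35 ± 0.23, and Col12a1, with 3.30 and 6.18, by 1.07 ± 0.22. Col15a1, with 10.1 and 33.3, rose by 1.35 ± 0.35 and Col6a5, with 1.61 and 2.04, by 1.38 ± 0.24. The Col15a1 call was kept in 11 of 16 alternatives and the Col6a5 call in 15 of 15. Col27a1, with 16.8 and 14.2, was called lower than ND with oil (-0.47 ± 0.15, limma adjusted p = 0.0447). That call was kept in 5 of 16 alternatives. It was lost by DESeq2, after quantile normalization, without the duration term, with no filter, with all 10 libraries in the fit, and without 6 of the 8 pools in turn, namely both WD with oil pools, both WD with CCl4 pools, the 12-week ND with CCl4 pool and the 24-week ND with oil pool. Over these alternatives the adjusted p ran from 0.0383 to 0.444.

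**Figure D4:**
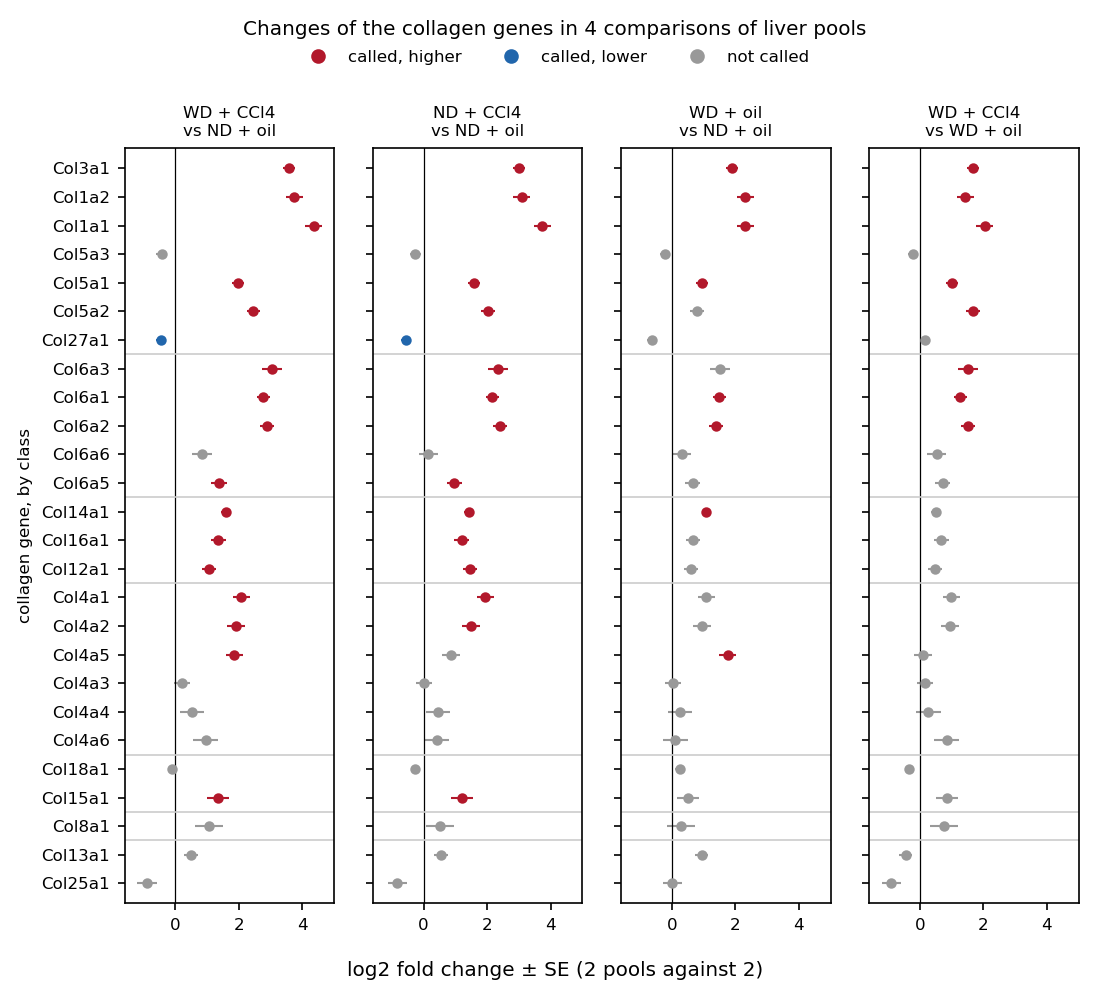
Log2 fold change ± SE (x axes) of the 26 tested collagen genes (rows, by class) in 4 comparisons of 2 pools against 2, with genes called by limma in red or blue and uncalled ones in grey. Col1a1, Col1a2, Col3a1, Col5a1, Col6a1 and Col6a2 are called higher in all 4 panels, Col4a5 only in the 2 panels that set WD against ND with oil, and Col18a1 in none.

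CCl4 was also compared with oil on the Western diet. Here limma called 8 of 26 tested collagens higher and 0 lower, or 30.8%, against 6.82% of all tested genes, and the median log2 change was 0.74 (all tested genes, -0.0188). All 8 were fibrillar or beaded filament collagens: Col1a1 (2.04 ± 0.27), Col3a1 (1.68 ± 0.19), Col5a2 (1.67 ± 0.21), Col1a2 (1.43 ± 0.27), Col5a1 (1.02 ± 0.19), Col6a3 (1.52 ± 0.32), Col6a2 (1.5 ± 0.22) and Col6a1 (1.28 ± 0.21). Of the basement membrane and FACIT collagens none was called by limma, with Col4a1 at 0.99 ± 0.26 (adjusted p = 0.061) and Col14a1 at 0.50 ± 0.14 (0.0737). By limma 2 of 6 and 2 of 3 of them had an unadjusted p under 0.05, as did 3070 of all 12648 tested genes. DESeq2 called 11 collagens, all higher, against 10.4% of all tested genes, and the 3 beyond the 8 were Col4a1, Col4a2 and Col14a1. Col4a5 changed by 0.11 ± 0.28. Limma's count was 0 without the WD with oil pool of 24 weeks (8 at an unadjusted p under 0.05), 4 without that of 12 weeks, 4 without the WD with CCl4 pool of 24 weeks and 13 without that of 12 weeks, where 0.229%, 0.925%, 2.47% and 6.78% of all tested genes were called.

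Across both diets, 15 of the 26 tested collagens, or 57.7%, had all 4 CCl4 pools above all 4 oil pools, where 13.6% of all tested genes did. The reverse held for 1 collagen, Col25a1, a transmembrane collagen of neurons, whose values were 0.23 and 0.0575 in WD with CCl4, 0.438 and 0 in ND with CCl4, 1.15 and 1.11 in WD with oil and 0.665 and 1.69 in ND with oil. Col25a1 passed the filter through 3 of these oil pools and no other library, and Col6a5, among the 15, mainly through CCl4 pools, so their lack of overlap is a description only. Limma did not call Col25a1 for CCl4 on either diet, and DESeq2 called it lower on the normal diet. Col1a1 relative to Col1a2, per kilobase, was 0.733 and 0.907 in WD with CCl4, 0.852 and 0.832 in ND with CCl4, 0.569 and 0.490 in WD with oil and 0.390 and 0.639 in ND with oil. Each CCl4 pool was above each oil pool in this ratio, which rested on 111 and 129 Col1a1 reads in the ND with oil pools.

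The Western diet was compared with the normal diet among mice given CCl4, and no collagen was called by limma, edgeR or DESeq2. By limma 5 of 26 had an unadjusted p under 0.05, as did 889 of all 12648 tested genes. After adjustment 0.0474% of all tested genes were called. The median log2 change of the collagens was 0.39, where that of all tested genes was 0.005. Of the 26, 22 were positive, with Col1a1 at 0.61 ± 0.27, Col3a1 at 0.58 ± 0.19, Col6a1 at 0.62 ± 0.21 and Col4a5 at 1.0 ± 0.28 (limma adjusted p = 0.48, the lowest of the 26). The share of all tested genes with a positive change was not counted.

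The interaction asks whether the change with CCl4 differed between the diets. Limma and edgeR called 0 of 26 collagens, against 0.103% of all tested genes by limma. By limma 10 of the collagens and 1131 of all 12648 tested genes had an unadjusted p under 0.05. The interaction was negative for 20 of 26, with a median of -0.54, where that of all tested genes was -0.0257. The share of all tested genes with a negative interaction was not counted. For Col1a1 the change with CCl4 was 2.04 on the Western diet and 3.74 on the normal diet, an interaction of -1.71 ± 0.38 (limma adjusted p = 0.225), and Col3a1 had -1.33 ± 0.27 (0.164) and Col1a2 -1.66 ± 0.38 (0.23). DESeq2 called 4 of them lower, which were Col1a1, Col1a2, Col3a1 and Col14a1, against 1.04% of all tested genes. Without the WD with CCl4 pool of 24 weeks limma called 3, Col1a1, Col1a2 and Col3a1, against 0.625% of all tested genes.

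Between 24 and 12 weeks, over the 4 groups of liver pools together, limma and edgeR called 0 of 26 collagens, where limma called 0% of all tested genes. By limma 8 of the collagens and 1475 of all 12648 tested genes had an unadjusted p under 0.05. DESeq2 called Col6a1 and Col6a2 higher at 24 weeks, and 0.712% of all tested genes. The values were not alike between groups. Col1a1 at 12 and 24 weeks had 86.0 and 196 in WD with CCl4 and 67.2 and 106 in ND with CCl4, but 33.2 and 28.8 in WD with oil and 4.92 and 5.90 in ND with oil. Each of these is 1 pool, so a change with time within a group has no replicate check. Col4a6, the type IV chain with the lowest mean over all 10 libraries, had 0.307 and 3.30 in WD with CCl4, 0.159 and 1.31 in ND with CCl4, 0.214 and 0.445 in WD with oil and 0.266 and 0.183 in ND with oil.

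Tumours were compared with the WD with CCl4 livers, in a fit of all 10 libraries. By limma an unadjusted p under 0.05 was found for 5 of the 26 tested collagens and for 2114 of all 12648 tested genes. After adjustment limma called 1 of the 26 higher and 0 lower, against 0.972% of all tested genes. The one was Col4a3 (chromosome 1, 82586921 to 82722059), a type IV chain best known from the filter of the kidney, which had 13.0 and 51.4 normalised counts in tumours 1 and 2, and 0.538 and 1.52 in the WD with CCl4 pools at 12 and 24 weeks. The 6 other liver pools had 0.597 to 0.861. The log2 change was 3.67 ± 0.58 (limma adjusted p = 0.0416), and edgeR and DESeq2 called it too. Col4a3 reached the filter's value of 1 in both tumours and in 1 of the 8 liver pools, so it was among the tested genes only through the tumours. With no filter the adjusted p was 0.0754. Read numbers were 333 and 1325 in the tumours and 14 and 53 in the WD with CCl4 pools. The call was kept without either tumour and lost without any 1 of the 8 liver pools, where the adjusted p was 0.122 to 0.224, while the change stayed at or above 2.72 in every alternative. Its head-to-head neighbour Col4a4 had 3.91 and 8.77 in the tumours and 0.0768 and 1.64 in the WD with CCl4 pools, a log2 change of 1.90 ± 0.50 that did not pass (limma adjusted p = 0.127). It too was tested only through the tumours.

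The other type IV chains differed between the 2 tumours. Col4a1 had 334 in tumour 1 and 116 in tumour 2, against 88.9 and 159.9 in the WD with CCl4 pools (0.59 ± 0.52, adjusted p = 0.625), and Col4a2 had 139 and 71.0 against 54.6 and 98.8. As a share of collagen level per kilobase without Col18a1, basement membrane collagen stood at 32.2% and 32.5% in the tumours and 15.3% and 16.2% in the WD with CCl4 pools. Col4a5 (10.4 and 7.72 in tumours) and Col4a6 (0.235 and 0.699) did not pass limma's test.

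**Figure D5:**
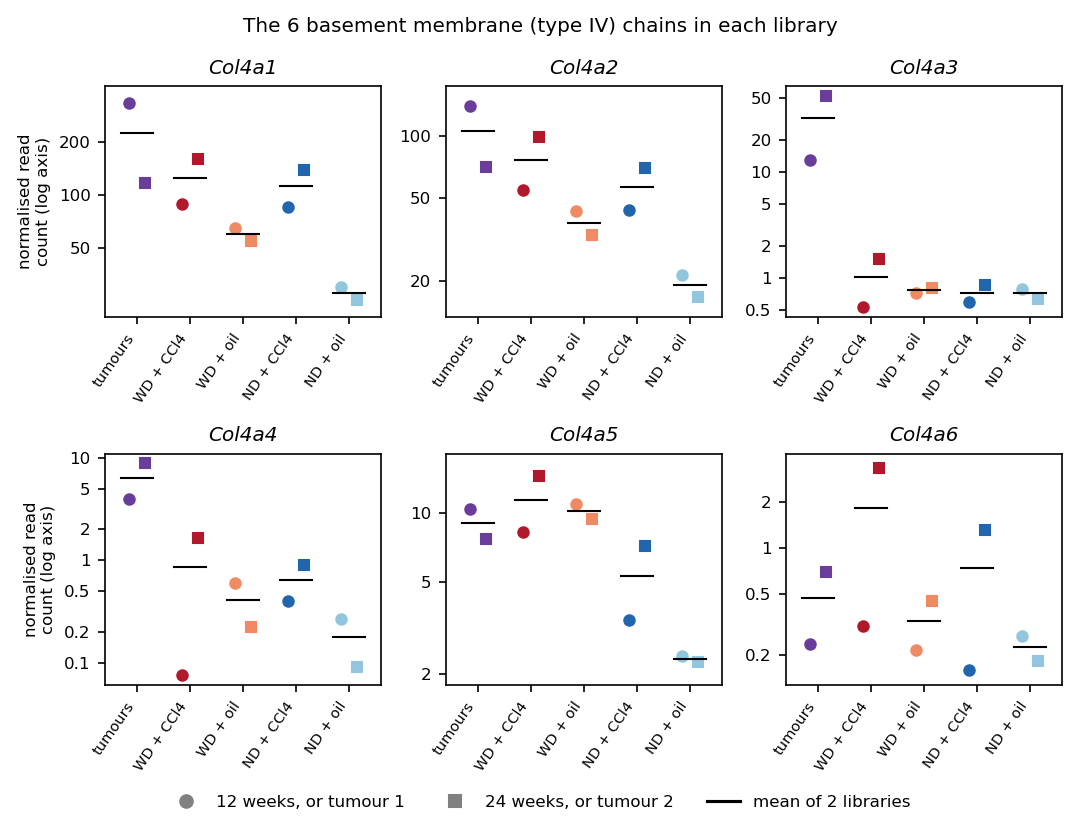
Normalised read counts (y axes, log scale) of the 6 type IV collagen chains by group, with circles for 12 weeks or tumour 1, squares for 24 weeks or tumour 2, and a bar for the mean of the 2 libraries. Col4a3 and Col4a4 are higher in both tumours than in any of the 8 liver pools, and Col4a5 is higher in both WD groups than in ND with oil.

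Of the beaded filament collagens, Col6a1, Col6a2 and the scarce Col6a5 were below both WD with CCl4 pools in both tumours without passing limma's threshold. The share of all tested genes that lay below in this way was not counted. Col6a5 had 0.938 and 1.59 in the tumours and 1.61 and 2.04 in the pools (-0.27 ± 0.28, limma adjusted p = 0.692). Col6a1 had 18.3 and 8.42 in the tumours and 31.3 and 60.7 in the WD with CCl4 pools (-2.0 ± 0.37, adjusted p = 0.0562), Col6a2 had 16.7 and 7.06 against 22.2 and 49.2 (-1.91 ± 0.41, 0.0768), and Col6a3 had 29.6 and 18.2 against 26.0 and 77.0 (-1.23 ± 0.41, 0.202). DESeq2 called Col6a1, Col6a2 and Col6a3 lower, beside Col4a3 higher, against 5.89% of all tested genes. The tumours and the pools overlapped for Col6a3 and for Col6a6, which had 0.626 and 4.00 in the tumours and 0.768 and 2.56 in the pools. As a share of collagen level per kilobase without Col18a1, the class stood at 5.17% and 5.75% in tumours and 10.8% and 13.8% in the WD with CCl4 pools. Relative to Col6a1, per kilobase, Col6a3 was at 0.736 and 0.987 in tumours and 0.359 to 0.578 in the 8 liver pools.

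Tumour 1 had higher values than tumour 2 for all 7 tested fibrillar collagens. Col1a1 had 122 in tumour 1 and 57.8 in tumour 2, against 86.0 and 196 in the WD with CCl4 pools, and Col3a1 had 308 and 141 against 238 and 372. Their changes were -0.85 ± 0.43 and -0.63 ± 0.39 (limma adjusted p = 0.371 and 0.465). Col5a3 was at 28.3 in tumour 1 and 5.86 in tumour 2, a ratio of 4.82, the widest of the tested fibrillar collagens. Without tumour 1 limma called 12 collagens, with Col4a3 and Col4a4 higher and 10 lower, among them Col1a1, Col1a2, Col3a1, Col5a3 and Col6a1, against 18.9% of all tested genes in that fit. Without tumour 2 it called 4, with Col4a1 and Col4a3 higher and Col6a1 and Col6a2 lower, against 17.9% of all tested genes. A lone tumour is then assumed to vary like the liver pools.

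The 18 untested collagens stayed at or under 1.68 normalised counts in every library, and that value was Col20a1 in tumour 1. They were the fibrillar Col2a1, Col11a1, Col11a2 and Col24a1, the FACIT collagens Col9a1, Col9a2, Col9a3, Col19a1, Col20a1 and Col22a1, Col6a4 of the beaded filaments, the transmembrane Col17a1 and Col23a1, the short-chain Col8a2 and Col10a1, the anchoring fibril collagen Col7a1, and Col26a1 and Col28a1. The cartilage collagen Col2a1, Col19a1 and Col26a1 were listed at 0 in all 10 libraries. Col8a2 reached 1.15 and Col11a2 0.922, and both maxima were in WD with CCl4 pools.

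Genes that build and remodel collagen were followed beside it. Of 27 tested genes of collagen folding, modification and cross-linking, 15 rose and 3 fell with CCl4 on the normal diet, 1 rose with the Western diet, 14 rose and 3 fell with the joint exposure against ND with oil, and 4 rose with CCl4 on the Western diet. Limma called 26.0%, 1.99%, 25.9% and 6.82% of all tested genes there, in that order. Loxl2, which cross-links collagen, rose by 1.59 ± 0.22, 1.17 ± 0.22, 2.06 ± 0.22 and 0.88 ± 0.22 in these 4 comparisons. Serpinh1, the collagen chaperone Hsp47, had 35.9 and 60.3 in WD with CCl4, 35.4 and 51.9 in ND with CCl4, 27.6 and 22.5 in WD with oil and 13.9 and 17.8 in ND with oil. Adamts2 and Adamts14, which cut the ends off procollagen, rose by 1.87 ± 0.28 and 1.39 ± 0.21 with CCl4 on the normal diet. Loxl4, another cross-linking enzyme, fell there by 1.32 on the log2 scale (SE 0.21), and it was the 1 called gene of the list in tumours, with 14.1 and 15.7 in tumours and 1.54 and 2.44 in the WD with CCl4 pools (2.19 ± 0.23, limma adjusted p = 0.0169). In the tumour comparison 0.972% of all tested genes were called.

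Of 8 tested collagen receptors, 4 rose with CCl4 on the normal diet, 6 with the joint exposure and 2 with CCl4 on the Western diet. The shares of all tested genes called there were 26.0%, 25.9% and 6.82%. Ddr1, a receptor kinase for collagen, rose by 2.11 ± 0.36 on the normal diet, Mrc2, an uptake receptor, by 1.93 ± 0.34 and the inhibitory receptor Lair1 by 1.27 ± 0.17. Of 7 tested proteases and protease inhibitors, 6 rose with CCl4 on the normal diet, 1 with the Western diet, 6 with the joint exposure and 1 with CCl4 on the Western diet. In that order, 26.0%, 1.99%, 25.9% and 6.82% of all tested genes were called. Mmp2, a gelatinase, rose in all 4 comparisons, by 2.0 ± 0.30, 2.0 ± 0.30, 3.24 ± 0.30 and 1.24 ± 0.30. Mmp13, a mouse interstitial collagenase, rose by 2.11 ± 0.34 and its inhibitor Timp1 by 1.68 ± 0.36 with CCl4 on the normal diet.

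Markers of several cell types were followed beside the collagens. Limma called 26.0% of all tested genes with CCl4 on the normal diet and 1.99% with the Western diet. It called 25.9% with the joint exposure and 6.82% with CCl4 on the Western diet. Counts of markers near these shares are not read as results about a cell type. Of 14 stellate cell and myofibroblast markers, 10 rose with CCl4 on the normal diet, 3 with the Western diet, 11 rose and 1 fell with the joint exposure, and 5 rose with CCl4 on the Western diet. Their summed level was 643 and 826 in WD with CCl4, 563 and 818 in ND with CCl4, 482 and 528 in WD with oil and 366 and 379.6 in ND with oil. Of 7 tested portal fibroblast markers, 6 rose with CCl4 on the normal diet, 1 with the Western diet, 5 with the joint exposure and 3 with CCl4 on the Western diet. Their sums were 83.1 and 243 in WD with CCl4, 124 and 203 in ND with CCl4, 64.4 and 70.2 in WD with oil and 60.03 and 65.2 in ND with oil. With CCl4 on the normal diet, 6 of 10 endothelial, 4 of 8 bile duct, 2 of 3 tested smooth muscle and 7 of 8 macrophage markers rose, and 4 of 9 tested hepatocyte markers fell. With the joint exposure these counts were 5, 3, 2 and 7 higher and 4 lower. With CCl4 on the Western diet 1 endothelial, 1 bile duct and 5 macrophage markers rose and 3 hepatocyte markers fell, and with the Western diet alone 4 macrophage markers rose. At 12 and 24 weeks, the macrophage sums were 922 and 670.1 in WD with CCl4, 495 and 724 in ND with CCl4, 383 and 435 in WD with oil and 202 and 267 in ND with oil, and the hepatocyte sums were 109572 and 72689, 89710 and 77926, 138869 and 116817, and 149175 and 141110 in the same order of groups. The endothelial sums in that order were 309 and 217, 248 and 299, 242 and 230.1, and 199.5 and 174, the bile duct sums 152 and 608, 175 and 379.9, 94.8 and 103, and 87.3 and 64.8, and the smooth muscle sums 12.1 and 16.9, 14.4 and 14.96, 9.53 and 10.2, and 7.23 and 8.01. Apart from endothelium, where the 24-week WD with CCl4 pool lay within the oil range, the sums of each list in the CCl4 pools lay above those of the oil pools, or below them for hepatocytes. No marker was at 0 in all libraries, Gli1 of the portal fibroblast list was at 0 in 5, and the part of these cell types in the collagen changes was not tested.

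In tumours against WD with CCl4 livers, 1 stellate marker, Lum, and 1 macrophage marker, Gpnmb, fell, against 0.972% of all tested genes called. By limma 9 of 14 stellate and 6 of 8 macrophage markers had an unadjusted p under 0.05, as did 2114 of all 12648 tested genes. The median log2 changes of these 2 lists were -0.88 and -0.98. Limma called no marker of the other 5 lists, where 1 portal fibroblast, 5 bile duct and 4 hepatocyte markers had an unadjusted p under 0.05. The stellate and myofibroblast markers summed to 585 in tumour 1 and 318 in tumour 2, against 643 and 826 in the WD with CCl4 pools, and Acta2, the actin of myofibroblasts and smooth muscle, had 44.9 and 7.65 in the tumours and 3.34 and 5.89 in the pools. The hepatocyte markers summed to 78072 and 237719 in the tumours and 109572 and 72689 in the pools. Most of that sum was Alb, at 66122 and 203789 in the tumours, and the single markers did not move together. Of the 9 tested, tumour 2 was above tumour 1 in 6 and below it in 3 (Ttr, G6pc and Cyp3a11), and it was above both WD with CCl4 pools in 4 and below both in 5. Tumour 2, the lower of the pair in the tested fibrillar collagens, was the lower in the stellate sum, and the part of these cell types in the collagen values was not tested.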

How the data were processed

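Flash-frozen liver was extracted, and 200 ng of total RNA per sample went into poly-A selected libraries, per the labels' protocols. The authors deposited a normalised signal per gene, from reads aligned with STAR to mm10, per the submitters' processing notes, which give no versions. The sources used here do not give the counter, annotation or scaling. Every value was a whole number of reads, within 0.01, times 1 constant per library (100% of values), so reads were recovered for edgeR 4.0.16 and DESeq2 1.42.0.

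Values were analysed as log2(value + 1), which understates changes of low genes. The 12648 genes whose value reached 1 in 2 or more libraries were fitted in limma 3.58.1 (R 4.3.3, trended eBayes, two-sided tests), using 1 mean per diet and treatment and a duration term (3 residual degrees of freedom, or 4 with tumours). The Benjamini-Hochberg adjustment took in all tested genes, with a threshold of 0.05. Levels per kilobase use the longest principal transcript in GENCODE. Fits were also run on simulated counts with a single fixed spread, where scarce genes were not among those changed. No result here rests on that run.

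The members and all gene lists were chosen with earlier results of these data known. Values by library are given for the 3 most abundant members of the fibrillar, beaded filament, FACIT and basement membrane classes. They are also given for both multiplexins, for Col13a1 and for up to 4 called members per class and comparison. The values of some libraries are left out. Of the other lists, up to 4 called genes are named. Col5a1, Col5a3, Col27a1, Col4a4, Col4a6, Col6a6, Col25a1, Alb, Ttr, G6pc, Cyp3a11 and Acta2 were added after their values were seen.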

Additional observations from a re-analysis of the deposited data

How the results depend on the processing

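No collagen called in any comparison changed direction under any alternative run. Of the 16 called for CCl4 on the normal diet, 8 kept the call under every alternative and 11 whichever liver pool was left out, and of the 17 of the joint exposure 12 and 13 did. None of the calls of the other comparisons was kept under every alternative. With all 10 libraries in 1 fit, the counts were 9 for CCl4 on the normal diet, and by limma 0 for the Western diet and 0 for CCl4 on the Western diet (14 and 12 at an unadjusted p under 0.05). With no filter limma called 0 for the Western diet, 0 for CCl4 on the Western diet and 0 in tumours (17, 14 and 6 at an unadjusted p under 0.05). Without the duration term the counts were 5 for the Western diet and 5 for CCl4 on the Western diet. The counts of these fits have no share of all tested genes beside them and describe the fits only. DESeq2 called 14 for the Western diet, 4 in the interaction, 2 for duration and 4 in tumours, against 4.51%, 1.04%, 0.712% and 5.89% of all tested genes. Leaving out 1 library at a time gave 11 to 17 for CCl4 on the normal diet, 0 to 10 for the Western diet, 13 to 21 for the joint exposure, 0 to 13 for CCl4 on the Western diet, 0 to 3 for the interaction and 0 to 12 for tumours. The share of all tested genes called moved widely between these fits too, so the ranges are not results about collagens alone. A pool left alone in its group was assumed to vary like the others. No scaling moved the median of all genes by over 0.1. Duration matched the pools across groups and was a term of the fits, and no paired analysis by replicate number was possible because the labels give none. The cause of these differences was not tested. The precision is limited by 1 pool per group and duration and 2 tumours. Col4a3, Col4a4, Col4a6, Col6a5, Col6a6 and Col25a1 rested on few reads in most pools.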
